A study of Mus musculus with 5 samples.

Results

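Of 28187 probe sets kept from the arrays, 5226 carry no gene symbol in the annotation used here, and these unnamed probe sets are described below. They were chosen as the probe sets whose numeric ID lies at or above the lowest annotated ID (10344624) and that have no symbol there. No measured value entered this rule, although it was set with earlier results of these data known. The other kept probe sets comprise 21640 with 1 symbol and 1321 with several. A further 6573 probe sets of the 34760 in the table have lower IDs and served only as presumed controls.

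The study measured RNA pulled down with SMN (survival of motor neuron) on 5 Affymetrix arrays, to ask which RNAs lie in SMN-containing particles. SMN is deficient in spinal muscular atrophy, and its complex is known to assemble Sm rings on the RNAs of the spliceosome. NSC-34 cells were used, a hybrid line of mouse neuroblastoma and spinal cord with motor neuron features. The 3 FLAG-SMN IP arrays came from cells with a construct for full-length SMN carrying the 3XFLAG tag, and the 2 control IP arrays from NSC-34 cells with no FLAG construct.

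Both groups were grown in 1% serum, for 3 days by one protocol of the labels and for 48 hours before doxycycline by another. Both then received doxycycline at 3 µg/ml for 3 days, were exposed to UV (400 mJ/cm2), and were precipitated with anti-FLAG M2 beads. From each precipitate, 300 to 500 ng of RNA was labelled. The labels name no promoter for the construct and do not say whether it has mouse or human sequence, whether the line is 1 clone, or whether replicates were separate cultures. The p-values therefore measure only the spread between these arrays, which may be technical. RNA of the unprecipitated lysates was not analysed here, so a difference may hold a difference between the cells. Fewer cells of a kind and less RNA per cell cannot be told apart in such bulk samples.

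An unnamed probe set still has a place on the array's list, and that place can be read. Among 20503 pairs of probe sets for different named genes next to each other in ID order, 94.5% lay on 1 chromosome in the mouse RefSeq table. Of those pairs, 94.7% lay within 1 Mb of each other and 99.2% had rising start positions. The median distance was 81.6 kb. Of the pairs on 1 chromosome with known strands, 98.9% lay on the same strand. The names on both sides of an unnamed probe set therefore mark a stretch of genome, without saying which transcript it reads.

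Small nucleolar RNAs (snoRNAs) are short nuclear guide RNAs. Those of the box C/D class direct ribose methylation, and those of the box H/ACA class direct pseudouridylation, mostly of ribosomal RNA. In mammals most are cut from introns of a host gene, often one for a ribosomal protein, a translation factor or a long non-coding RNA whose exons encode no protein. Many host genes begin transcription at a terminal oligopyrimidine tract, a run of C and T at the first transcribed bases.

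The promoters of 3 such hosts are shown because the runs of unnamed probe sets with the largest differences described below lie around them. Snhg1 and Snhg14 are long non-coding host RNAs, and Rpl7a encodes a protein of the large ribosomal subunit. The sequences are from RefSeq (GRCm38.p6), with 250 bases before and 50 after the annotated start. Capitals mark any tract of at least 8 C or T that overlaps the window from 10 bases before the start to 20 after it.
Snhg1, chr19:8723237-8723536, plus strand: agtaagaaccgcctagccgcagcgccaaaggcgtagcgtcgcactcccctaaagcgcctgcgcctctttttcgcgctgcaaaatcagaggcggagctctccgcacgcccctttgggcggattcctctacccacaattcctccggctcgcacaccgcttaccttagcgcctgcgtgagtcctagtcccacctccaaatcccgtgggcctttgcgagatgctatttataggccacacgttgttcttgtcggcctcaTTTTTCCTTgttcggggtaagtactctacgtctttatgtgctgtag
Rpl7a, chr2:26910557-26910856, plus strand: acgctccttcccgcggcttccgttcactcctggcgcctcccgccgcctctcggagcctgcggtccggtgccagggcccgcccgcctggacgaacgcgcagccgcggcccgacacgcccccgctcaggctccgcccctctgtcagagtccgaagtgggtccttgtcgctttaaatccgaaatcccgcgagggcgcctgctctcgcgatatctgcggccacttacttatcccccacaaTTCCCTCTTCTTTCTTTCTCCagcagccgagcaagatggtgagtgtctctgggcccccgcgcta
Snhg14, chr7:60450128-60450427, minus strand: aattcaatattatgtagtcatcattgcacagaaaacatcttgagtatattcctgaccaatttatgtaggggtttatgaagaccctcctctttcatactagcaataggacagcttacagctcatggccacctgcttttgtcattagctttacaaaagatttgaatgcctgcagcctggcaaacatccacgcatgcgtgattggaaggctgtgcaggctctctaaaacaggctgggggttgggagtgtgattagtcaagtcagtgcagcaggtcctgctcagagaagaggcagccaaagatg

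The tract of Snhg1 is 9 bases long and begins 4 bases after the first transcribed base. That of Rpl7a is 21 bases long and begins 14 bases before the annotated start. The Snhg14 window holds no such tract. Of 32851 RefSeq mouse promoters of this length, with chromosome 18 left out, 16.9% hold one. The motif TATAAA was searched on both strands. It matched once in Snhg1, on the opposite strand and beginning 29 bases before the start, and did not match in the other windows. Of the same 32851 promoters, 13.6% had a match. These matches describe the letters only.

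The unnamed probe sets were dim. Their median level over the 5 arrays was 4.46 on the log2 scale (quartiles 3.37 and 5.92), against 5.63 for probe sets with 1 symbol. Below a level of 4 lay 39.9% of them and 23.4% of those with 1 symbol. At the bright end the 2 kinds were close, with 130 unnamed probe sets (2.5%) and 589 named ones (2.7%) at 10 and above. The 95th percentile of the presumed controls was 9.41, and 176 unnamed probe sets (3.4%) exceeded it, against 4.6% of those with 1 symbol. Per array their median was 4.54, 4.54 and 4.37 in FLAG-SMN IP replicates 1, 2 and 3 and 4.53 and 4.24 in control IP replicates 1 and 2. The plot of signal levels shows the excess of dim probe sets.

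**Figure D1:**
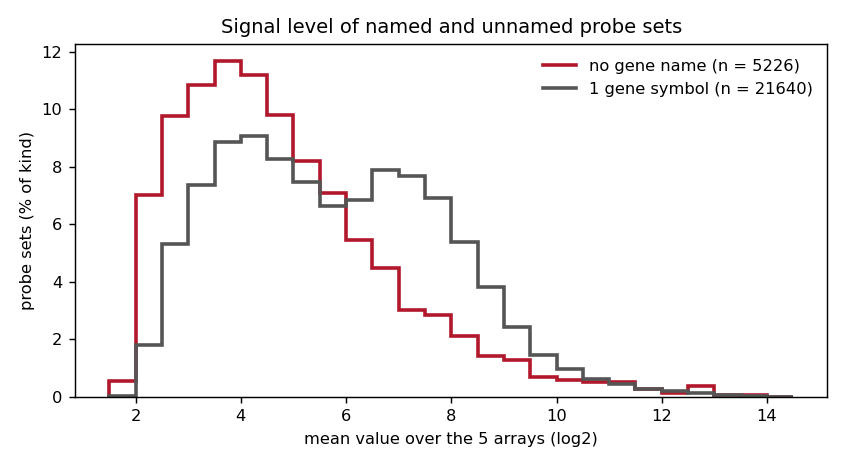
Distribution of the mean log2 value over the 5 arrays (x axis) for the 5226 unnamed probe sets (red) and the 21640 with 1 gene symbol (grey), each as a percentage of its kind in bins of 0.5 (y axis). The unnamed probe sets peak at lower levels (median 4.46 against 5.63), and the curves meet at the bright end.

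FLAG-SMN IP replicate 1 was the least like its group. Across unnamed probe sets its correlation with replicates 2 and 3 was 0.954 and 0.955, whereas replicates 2 and 3 reached 0.983 with each other and the control arrays 0.978. Values between arrays of different groups ran from 0.938 to 0.969. Probe sets share their arrays and these values carry no test. Some counts and medians below are also given without FLAG-SMN IP replicate 1, and the others include it. Of 12 measured marker genes of neurons and motor neuron-like cells, 9 exceeded the median of the presumed controls on all 5 arrays, as did 4 of 4 noradrenergic genes and 5 of 13 of glia, macrophages, endothelium, fibroblasts and muscle. The motor neuron gene Mnx1 and the neuronal gene Stmn2 exceeded it on 0 arrays, and Chat on 4. These are levels in precipitates, not in the cells.

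Among the unnamed probe sets, more were higher than lower in the FLAG-SMN precipitates, the reverse of the named ones. At least 2-fold higher with an unadjusted p under 0.05 were 139 of 5226 (2.66%), where 1.15% of all kept probe sets met this rule and 0.698% of those with 1 symbol. At least 2-fold lower by the same rule were 41 (0.785%), against 1.63% of all and 1.87% of those with 1 symbol. Without control IP replicate 2 the higher count was 76, and without control IP replicate 1 the lower count was 64. These 139 and 41 are called 2-fold higher and 2-fold lower below. The 2-fold rule is a description, since few of these differences passed the adjusted test.

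All 3 FLAG-SMN values lay above both control values at 780 unnamed probe sets (14.9%; 12.1% of all kept), and below both at 392 (7.5%; 13.2% of all kept). An unadjusted limma p under 0.05 was reached by 324 in the higher direction (6.2%; 4.14% of all kept) and 160 in the lower direction (3.06%; 6.31% of all kept). After Benjamini-Hochberg adjustment over all 28187 probe sets, 1 unnamed probe set passed the threshold of 0.05 as higher (0.0142% of all kept passed in that direction) and 0 as lower (0.0177% of all kept). With FLAG-SMN IP replicate 1 left out, 58 passed as higher (1.11%; 0.564% of all kept) and 13 as lower (0.249%; 0.678% of all kept). With any other array left out, 0 passed.

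The median difference, FLAG-SMN IP minus control IP, was 0.07 over the unnamed probe sets and 0.00 over those with 1 symbol, on the log2 scale. It was positive at 62.7% and 50.4% of them. Without control IP replicate 2 these medians were −0.01 and −0.04, so the sign of the small common shift rests on that array. The share of 2-fold higher probe sets exceeded that of named ones in every band of signal. Between levels of 4 and 6 it was 51 of 1897 (2.69%) against 0.25%. Between levels of 6 and 8, 47 of 827 unnamed probe sets (5.68%) were 2-fold higher, against 1.07% of those with 1 symbol. Between 8 and 10 it was 23 of 288 (7.99%) against 1.55%, and at 10 and above 7 of 130 (5.38%) against 3.06%. Below a level of 4 it was 11 of 2084 (0.528%) against 0.0791%. The median SD within groups was 0.25 for unnamed and 0.24 for named probe sets. It was larger for the unnamed ones in the middle bands, at 0.28 against 0.23 between levels of 4 and 6, 0.34 against 0.29 between 6 and 8, and 0.39 against 0.30 between 8 and 10. Its part in the difference in shares was not tested. The bands use the mean over all 5 arrays, which high FLAG-SMN values raise.

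**Figure D2:**
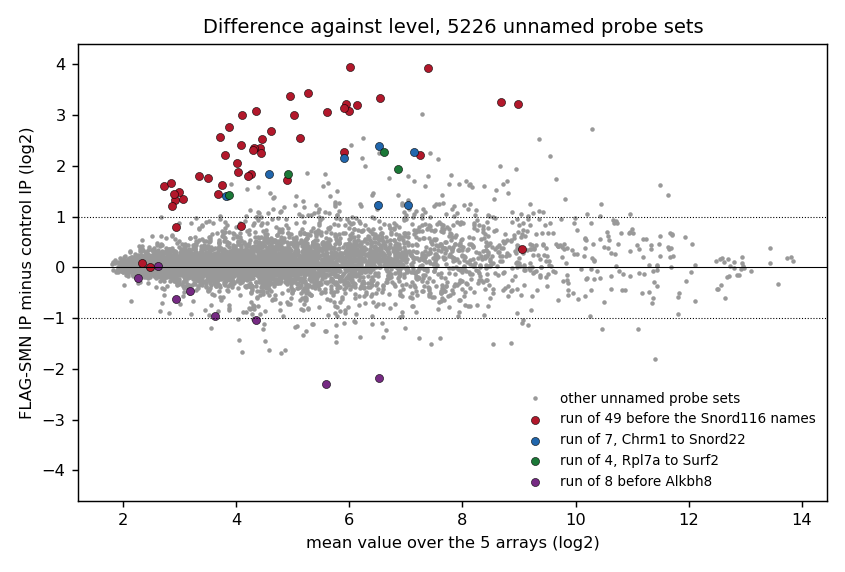
Each point is 1 of the 5226 unnamed probe sets, by mean log2 value over the 5 arrays (x axis) and FLAG-SMN IP minus control IP difference (y axis, log2); dotted lines mark 2-fold. The run of 49 (red), the run of 7 (blue) and the run of 4 (green) lie mostly above the upper line, and 2 probe sets of the run before Alkbh8 (purple) lie below −2.

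Read in ID order, the unnamed probe sets formed 3754 runs, a run being an unbroken stretch with no named probe set between. Of the probe sets, 2853 (54.6%) stood alone between named ones, 1326 stood in runs of 2, and 1047 in 238 runs of at least 3. The longest run held 91. Next to a probe set for a snoRNA or a host gene stood 349 unnamed probe sets in 246 runs. Of these, 19 (5.44%) were 2-fold higher and 5 (1.43%) 2-fold lower, with a median difference of 0.09. Of 4269 next to other single genes, 108 (2.53%) were 2-fold higher and 31 lower, with a median of 0.07. Of these 108, 36 belong to a run of 49 before probe set names of the Snord116 cluster and 4 to a run beside Rpl7a, both described below, whose flanking probe sets with several names were not counted as snoRNA or host neighbours. Without both runs, 68 of 4216 (1.61%) were 2-fold higher.

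The remaining neighbourhoods were small or close to the rest. Next to microRNA genes, 1 of 80 was 2-fold higher and 3 lower, and next to ribosomal protein genes 1 of 60 was higher and 2 lower. Beside histone genes 0 of 22 passed either way. Beside olfactory and vomeronasal receptor genes, which were the dimmest neighbourhood (median level 3.37), 4 of 222 were 2-fold higher and 0 lower. The named probe sets for snoRNAs had a median difference of 0.64 over 59, and those for hosts 0.02 over 500. Of the 19 higher neighbours of snoRNA or host genes, 9 stood in runs of at least 3, which held 75 of these neighbours in all.

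The one unnamed probe set that passed the adjusted test, 10461150, lies in such a run. It read 7.52, 7.29 and 7.60 in the FLAG-SMN precipitates and 5.26 and 4.91 in the controls. The FLAG-SMN mean was 7.47 ± 0.16 (SD, n = 3) and the control mean 5.09 ± 0.25 (SD, n = 2). The log2 difference of 2.38 (SE 0.20) is 5.22-fold, with a 95% confidence interval of 3.73 to 7.31 and a limma adjusted p of 0.0448. The 3 FLAG-SMN values lay close together and more than 2 units above both controls. The call depended on the fit, as the adjusted p ran from 0.00882 without FLAG-SMN IP replicate 1 to 0.456 without control IP replicate 2.

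The run of 7 around it lies on chromosome 19 between Chrm1, a muscarinic acetylcholine receptor gene, and Snord22, a box C/D snoRNA gene. All 7 had every FLAG-SMN value above both controls (12.1% of all kept), and 6 were 2-fold higher (1.15% of all kept). Their differences ran from 1.23 to 2.38, with a median of 1.84. The neighbour of the called probe set in strength, 10461156, read 7.86, 7.90 and 8.43 against 5.76 and 5.81, a difference of 2.28 (SE 0.23, limma adjusted p = 0.0536). Probe set 10461152 read 7.60, 5.94 and 6.75 against 4.86 and 4.35, and 10461154 read 5.84, 5.17 and 4.96 against 3.44 and 3.52. In both, the groups were separate but the FLAG-SMN arrays spread more widely.

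The other 3 of the run were closer to the controls or dim. Probe set 10461160 read 6.89, 6.66 and 7.45 against 5.79 and 5.73, and 10461158 read 8.35, 6.69 and 7.58 against 6.23 and 6.38. Probe set 10461148 was dim, at 3.95, 3.49 and 5.71 against 2.91 and 3.07, and was highest on replicate 3. At the end of the run the named Snord22 read 9.39, 6.22 and 8.43 against 4.87 and 5.20, a difference of 2.97 (SE 0.83, limma adjusted p = 0.268). At its start Chrm1 showed 0.20 (SE 0.21). The step from a difference near 0 to one above 1 falls between Chrm1 and the first unnamed probe set.

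RefSeq lists 7 snoRNA genes between the starts of Chrm1 and Snord22 and no other small RNA gene without a probe set of its own. All 7 lie within Snhg1, whose promoter is printed above, and Snord22 is the eighth. Snhg1 itself has 0 probe sets of its own name here. The number of unnamed probe sets and of unmatched snoRNA genes is thus the same, but no sequence or coordinate links one to the other. The strand of the snoRNA genes was not considered.

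A run of 4 on chromosome 2 also stood above the controls. It stands between a probe set that carries the names Gm5766 and Rpl7a and the gene Surf2. All 4 had every FLAG-SMN value above both controls (12.1% of all kept) and were 2-fold higher (1.15% of all kept). Their differences ran from 1.42 to 2.27, with a median of 1.89. Probe set 10470314 read 7.96, 7.04 and 7.92 against 5.66 and 5.75 (difference 1.93, SE 0.31). Probe set 10470318 read 8.62, 6.95 and 6.99 against 5.06 and 5.44 (2.27, SE 0.51). The limma adjusted p ran from 0.121 to 0.30, so none passed. The remaining 10470316 and 10470320 were dimmer, with control values from 2.86 to 4.0.

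Surf2, the named neighbour after the run, differed by 0.21 (SE 0.22), and the probe set before it by 0.76 (SE 0.18) at levels from 2.31 to 3.26. RefSeq places 4 snoRNA genes within Rpl7a, and 6 between Dipk1b and Surf2, the nearest genes with a single name on each side.

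**Figure D3:**
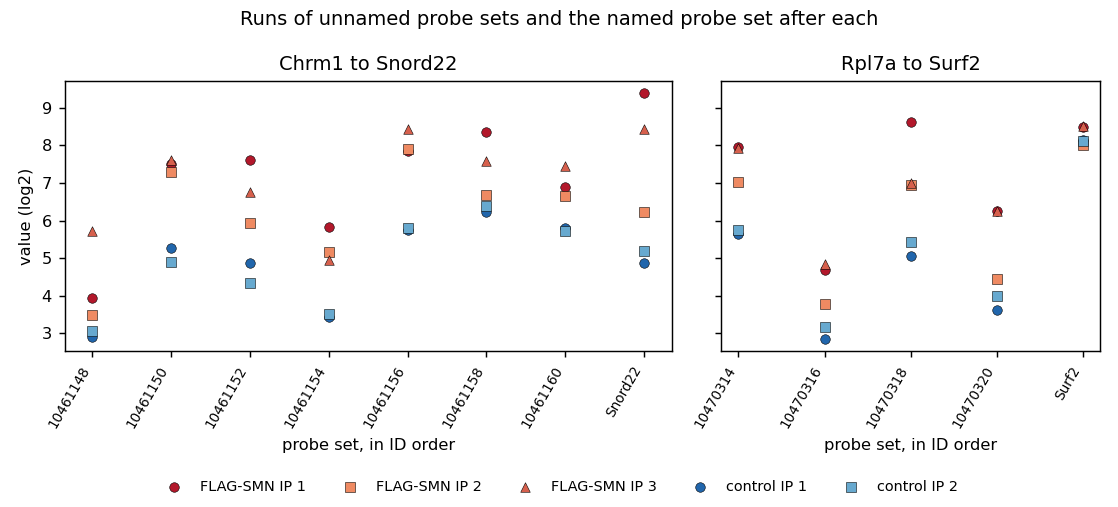
Log2 values (y axis) on each of the 5 arrays for the unnamed probe sets of the run between Chrm1 and Snord22 (left) and the run between Rpl7a and Surf2 (right), in ID order (x axis), each followed by the named probe set after it. Red and orange symbols are FLAG-SMN IP and blue symbols control IP; at all 11 unnamed probe sets the FLAG-SMN values lie above both control values, and at Surf2 they overlap.

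Eif4a2, a translation initiation factor gene on chromosome 16, holds 5 snoRNA genes in RefSeq, Snord2 and Snora81 among them. The run of 3 between Eif4a2 and Adipoq had a median difference of 1.16. Probe set 10434745 read 8.17, 9.52 and 7.87 against 7.36 and 6.06 (1.81, SE 0.57), and 10434743 read 8.30, 8.74 and 8.66 against 7.89 and 6.94 (1.16, SE 0.31). The third, 10434741, had groups that overlapped, at 5.40, 6.97 and 7.24 against 5.64 and 5.96. Eif4a2 itself differed by 0.83 (SE 0.34). The limma adjusted p of the 3 ran from 0.255 to 0.773.

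Not every run beside a snoRNA or host gene stood higher. A run of 8 before Alkbh8, described with the lower probe sets, had a median of −0.78. It counts among these neighbours by list order only, as it could not be placed on 1 chromosome. The run of 4 between Timd4 and Snord96a on chromosome 11 had a median of 0.16. It includes 10375487, one of the brighter unnamed probe sets, at 12.51, 12.61 and 12.71 against 12.50 and 12.41, where the groups nearly touch. The host Rack1, a ribosome-associated scaffold protein gene, holds 3 snoRNA genes in RefSeq. Runs beside Lrba on chromosome 3 (median 0.04) and between Itgbl1 and Esd (median −0.15) were mixed. The first holds 10492953, at 9.14, 10.25 and 9.01 against 8.22 and 7.31 (1.70, SE 0.44), while its other 2 probe sets differed by −0.06 and 0.04.

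The largest group of high unnamed probe sets was a run of 49 listed before probe set names of the Snord116 cluster. That cluster is an imprinted tandem array of box C/D snoRNAs in the Prader-Willi syndrome region. The probe set after the run carries the names Snord116l2, Snord116l1 and Gm26504. The probe set before it is named Depdc1a, a gene of another chromosome, so the place was read from the wider order, between Gabra5 and A230006K03Rik on chromosome 7. RefSeq lists 208 snoRNA genes among 211 small RNA genes in that interval, and 206 lie within Snhg14. How many of these belong to the Snord116 cluster, and which of them the 49 probe sets read, was not established. Snord116 run and Snord116 interval are used below as labels only. Tandem copies share sequence, so probe sets of this run may read one another's RNA and are not independent.

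Of the 49 differences 48 were positive, from 0.00 at the lowest to 3.95, with a median of 2.28. At 45 all FLAG-SMN values lay above both controls (12.1% of all kept), and 36 were 2-fold higher (1.15% of all kept). Those 2-fold higher numbered 18 without control IP replicate 2 and 23 without control IP replicate 1. None passed the adjusted test, the smallest limma adjusted p being 0.131. The array medians over the run were 6.77, 5.12 and 4.23 in FLAG-SMN IP and 3.12 and 2.85 in control IP. The control medians lay below the medians of the presumed controls on those arrays (4.49 and 4.55), so the sizes of many differences are uncertain and no folds are given.

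The FLAG-SMN arrays differed widely among themselves here. Replicate 1 was the highest array at 46 of 49 and lay a median of 2.05 above the mean of replicates 2 and 3, while the control arrays differed by a median of 0.19. Replicate 3, the lowest of its group by median, still lay above both controls at 49 of 49, and replicate 2 at 47. Without replicate 1 the median difference was 1.54 and 21 of the 49 passed the adjusted test. Without any other single array it ran from 2.09 to 2.80 and 0 passed.

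The brightest member of the run by mean level, 10563891, did not have this pattern. It read 8.77, 9.50 and 9.31 against 8.85 and 8.81 (0.37, SE 0.25), with replicate 1 below both controls. The next 4 described, chosen after their values were seen, did. Probe set 10564089 read 11.72, 9.70 and 9.38 against 6.88 and 7.22, and 10564011 read 11.15, 9.60 and 9.24 against 7.18 and 6.28. Probe set 10564111 read 10.32, 8.79 and 7.80 against 4.91 and 5.17, with a difference of 3.93 (SE 0.65). The largest difference, 3.95 (SE 0.76), was at 10564135, with 9.25, 7.20 and 6.35 against 3.58 and 3.72. On each of these 4 replicate 1 was the highest and replicate 3 the lowest of the FLAG-SMN arrays, and the lowest still stood more than 2 units above the higher control. At 10564009, with 9.09, 7.59 and 7.71 against 5.71 and 6.12, replicate 2 was the lowest of its group. The named probe set after the run read 9.92, 11.09 and 10.28 against 9.58 and 8.03 (1.62, SE 0.51), with replicate 1 the lowest of its group.

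**Figure D4:**
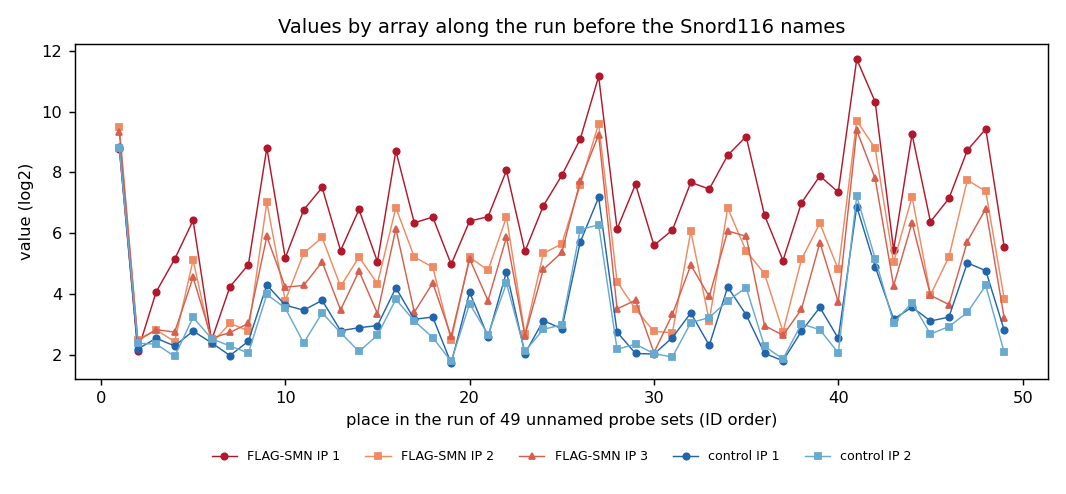
Log2 values (y axis) of the 49 unnamed probe sets before the Snord116 names, by place in the run (x axis), with 1 line per array. FLAG-SMN IP replicate 1 (dark red circles) is the highest array at 46 of 49, replicates 2 and 3 lie between it and the controls at most places, and both control arrays (blue) have medians near 3.

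To see whether snoRNA genes surround high unnamed probe sets elsewhere, each was placed between the nearest single-name genes on both sides in the RefSeq order. This grouping was added after values had been seen. It placed 4867 of the 5226 (93.1%) in 3472 intervals. Strand was ignored, so the same small RNA gene can lie in more than 1 interval. At least 1 snoRNA gene with no probe set of its own lay in the interval of 1212. Of these 82 (6.77%) were 2-fold higher and 7 (0.578%) lower, with a median difference of 0.11. The higher count ran from 46 without control IP replicate 2 to 109 without FLAG-SMN IP replicate 1. Of 3655 in intervals without one, 52 (1.42%) were higher and 31 (0.848%) lower, with a median of 0.06. Leaving out the Snord116 interval, from Gabra5 to A230006K03Rik, 45 of 1161 (3.88%) were 2-fold higher. That count ran from 28 without control IP replicate 2 to 73 without FLAG-SMN IP replicate 1.

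Seen from the other side, 82 of the 134 2-fold higher probe sets that could be placed (61.2%) lay in an interval with a snoRNA gene, against 24.9% of all that were placed. The Snord116 interval held 37 of them. Above the median kept level of 5.33, 49 of 389 (12.6%) with a snoRNA gene in the interval were 2-fold higher, against 39 of 1224 (3.19%) without. Their median differences were 0.30 and 0.14. Without the Snord116 interval, 37 of 376 (9.84%) with a snoRNA gene were 2-fold higher. Levels are means over all 5 arrays, so high FLAG-SMN values help a probe set pass this filter. Probe set 10564135 passed it with control values of 3.58 and 3.72. The shares above this level are therefore not independent of the difference itself.

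Intervals with spliceosomal small nuclear RNA (snRNA), microRNA or transfer RNA genes alone had lower shares of 2-fold higher probe sets than those with a snoRNA gene. For snRNA genes, many of which are dispersed copies, it was 11 of 618 (1.78%), with 3 lower. For microRNA genes it was 1 of 298 (0.336%), with 4 lower, and for transfer RNA genes 0 of 42. The small classes with ribosomal RNA genes alone (4 of 10, 40.0%) and with genes RefSeq types as misc_RNA alone (3 of 36, 8.33%) had higher shares than those with a snoRNA gene. Intervals with no such gene gave 31 of 2488 (1.25%) higher and 24 lower. Intervals hold between 0 and many genes, and which of them a probe set reads, if any, was not tested.

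**Figure D5:**
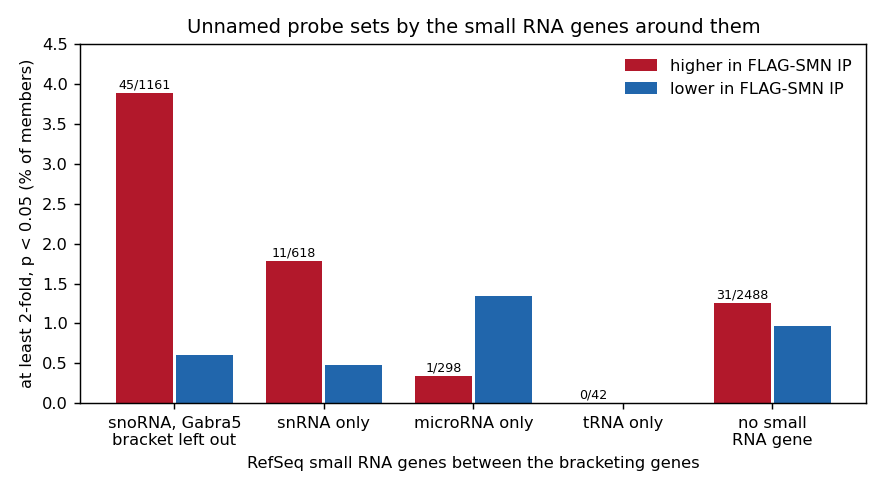
Percentage of unnamed probe sets at least 2-fold higher (red) or lower (blue) in FLAG-SMN IP with an unadjusted p under 0.05 (y axis), by the RefSeq small RNA genes between the nearest named genes (x axis); fractions above the red bars give counts. Of the classes drawn, the red bar is tallest where a snoRNA gene is present (45 of 1161, the Gabra5 to A230006K03Rik interval left out); the small classes with ribosomal RNA genes alone (4 of 10) and misc_RNA genes alone (3 of 36) are not drawn.

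The simplest intervals hold 1 unnamed probe set and 1 small RNA gene. With a snoRNA gene there were 211, of which 12 (5.69%) were 2-fold higher and 2 lower. With an snRNA gene 4 of 262 (1.53%) were higher, with a microRNA gene 0 of 133, and with no small RNA gene 19 of 1614 (1.18%). Among the bright ones, 10599205, between Pgrmc1 and Slc25a43 on chromosome X, read 12.55, 11.91 and 12.14 against 11.13 and 10.44 (1.42, SE 0.29). Probe set 10450482, between Prrc2a and Aif1 on chromosome 17, read 8.83, 9.35 and 9.98 against 8.01 and 7.85 (1.46, SE 0.33). Both had separate groups, and neither passed the adjusted test. They and the 5 in the next paragraph were chosen after their values were seen. Intervals ignored strand, so a snoRNA gene could count for more than 1 probe set. The gene of 10450482, Gm23442, is also the one of 10444747, between Bag6 and Ltb, which differed by 0.01 (SE 0.2).

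Beside Gas5, a long non-coding host RNA with 8 snoRNA genes in RefSeq, 10351045 follows the named Snord47 and read 6.77, 5.18 and 6.05 against 3.43 and 4.87 (1.85, SE 0.56). Probe set 10367118, between Atp5b and Mir677, has Snord59a in its interval and read 6.05, 5.27 and 6.38 against 4.31 and 5.04 (1.22, SE 0.37). At 10442493, between Caskin1 and Pkd1, the values were 8.64, 6.26 and 6.87 against 5.0 and 4.43 (2.55, SE 0.65). A different pattern held at 10493307, between Khdc4 and Rit1, with 7.40, 11.80 and 11.86 against 8.18 and 7.49. There FLAG-SMN IP replicate 1 was the lowest array of all 5 and the groups overlapped. The snoRNA gene of that interval, Gm25820, is also the one of 10499429, between Rxfp4 and Syt11, which differed by −0.32 (SE 0.21). At 10384396, between Ddc and Grb10, replicate 1 lay between the control values, at 6.57, 9.46 and 9.21 against 6.67 and 5.88.

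Besides 10 of the Snord116 run, 2 probe sets completed the 12 largest positive differences by the naming rule. Probe set 10459768, between Ska1 and Lipg on chromosome 18, read 11.94, 10.86 and 11.33 against 8.95 and 8.35, a difference of 2.73 (SE 0.35, limma adjusted p = 0.0864). Its interval holds 1 snoRNA gene, Gm23119. Its mean level was the highest of the 12, and its groups were well apart. Probe set 10378438, between the olfactory receptor genes Olfr59 and Olfr412 on chromosome 11, read 9.66, 7.87 and 7.95 against 5.83 and 5.11 (3.02, SE 0.56, limma adjusted p = 0.147). No small RNA gene without its own probe set lies in that interval. The receptor probe sets on both sides read between 3.07 and 4.58.

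Ribosomal RNA genes, mostly 5S genes, which RNA polymerase III transcribes, surround a second small group. Intervals with such genes alone held 10 unnamed probe sets, with a median difference of 1.32. Of these 9 were positive (53.1% of all kept) and 4 were 2-fold higher (1.15% of all kept). All FLAG-SMN values lay above both controls at 5 (12.1% of all kept). The intervals on chromosome 8 hold 35 and 12 such genes, and those on other chromosomes hold 1 each. The 2-fold higher 10598238, 10435185 and 10401665 lie in intervals with a single gene, the last with LOC115488082, not named as 5S. Probe set 10582572, in an interval of chromosome 8 with 35 such genes between Dbndd1 and n-R5s136, read 7.69, 6.85 and 6.44 against 4.70 and 4.46 (2.41, SE 0.36, limma adjusted p = 0.11). The named n-R5s136 read 12.26, 10.60 and 11.06 against 9.34 and 8.52 (2.37, SE 0.50). The brightest of the group, 10582562, went the other way, at 10.16, 13.59 and 13.47 against 13.31 and 12.70, with replicate 1 alone below the controls. The third of that run, 10582578, had overlapping groups, so the run's median of 0.98 was 1.68 without replicate 1 and 0.46 without replicate 2.

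Unnamed probe sets that were lower in the FLAG-SMN precipitates had smaller differences, and the 2 largest shared a run. This run of 8 stands on the list after a probe set naming Csprs and 4 predicted genes and before Alkbh8, a transfer RNA modification gene, and could not be placed between genes of 1 chromosome. Probe set 10582890 read 5.34, 4.55 and 4.12 against 6.95 and 6.98 (−2.29, SE 0.35, limma adjusted p = 0.114). Probe set 10582882 read 6.52, 5.30 and 5.15 against 8.04 and 7.64 (−2.18, SE 0.42, limma adjusted p = 0.152). Both passed without FLAG-SMN IP replicate 1, with differences of −2.63 and −2.61. The run's median was −0.78, which was −0.46 without control IP replicate 2. Its members count as neighbours of a snoRNA or host gene, and 3 of the 5 2-fold lower ones of that class stand in it. The named probe sets on its sides differed by −0.19 and −0.41.

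The other 6 lower probe sets taken by the naming rule, which asks for a mean above the median kept level, each stood alone or in a pair, with differences from −1.37 to −1.50. The 4 dimmer probe sets 10557853, 10603878, 10514185 and 10489053 had larger ones, from −1.62 to −1.69. Probe set 10574899, between the transcription factor gene Thap11 and Edc4, an mRNA decapping cofactor gene, read 6.29, 6.90 and 7.33 against 8.05 and 8.64. Probe set 10449815, between Ephx3 and Akap8, read 7.58, 8.92 and 8.26 against 9.97 and 9.54. Probe set 10553773, between Gm9962 and the phospholipid flippase gene Atp10a, read 5.14, 5.05 and 5.37 against 6.28 and 7.03. The other three (10446423 beside Washc1, 10367803 between Stxbp5 and Adgb, 10375127 beside D130052B06Rik) had separate groups as well. Limma adjusted p-values of these 6 ran from 0.133 to 0.338.

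The runs taken by the naming rule and not yet described had medians from −0.27 to 0.92. The 13 unnamed probe sets between Slc26a11 and Rnf213 on chromosome 11 had values from 4.83 to 8.87 and a median difference of −0.27, which was 0.10 without FLAG-SMN IP replicate 1. Runs of 3 before Gnat2 and before Trim36 had medians of −0.27 and −0.26, the latter 0.10 without control IP replicate 1. The run of 3 after Edn3 had a median of 0.88, which was 0.46 without control IP replicate 2, led by 10479215 at 7.30, 8.62 and 8.43 against 6.38 and 6.26 (1.8, SE 0.39). None of these 22 probe sets passed the adjusted test.

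A run of 8 lies on the list between probe sets whose names include the nuclear non-coding RNA Malat1 and the mitochondrial gene ND6. All 8 differences were positive, from 0.02 to 1.24, with a median of 0.92 that was 0.32 without FLAG-SMN IP replicate 2. Only at 10598077 were the groups separate, with 6.75, 8.15 and 7.38 against 6.10 and 6.28. The arrays of 1 group spread widely, as at 10598085 with 9.48, 11.38 and 8.53 against 10.99 and 6.4.

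The brightest unnamed probe sets differed little between the groups. Probe set 10608690 read 14.13, 13.52 and 14.01 against 13.53 and 13.83, and 10608691 read 13.96, 13.71 and 14.01 against 13.61 and 13.95. Both belong to the run of 91 that ends the list, with no named probe set after it. Next came 10598025, 10598020 and 10598034, from a run of 10 before COX2, a mitochondrial gene, at 13.42 to 13.97 against 13.08 to 13.69. In the controls 10368612, between Sult3a2 and Zup1, belonged to the brightest 5, at 13.51, 13.30 and 13.51 against 13.75 and 13.78. Differences of these 6 ran from −0.32 to 0.38, and none passed the adjusted test, although the groups were separate at 10598020 and 10368612.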

How the data were processed

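RNA from 3 FLAG-SMN and 2 control precipitates was measured on 1 array each, grouped by the sample titles. The authors deposited log2 values per probe set, from 1.28 to 14.15 with 0 missing. The submitters' processing notes name RMA, which corrects background, equalises the arrays' quantiles and summarises probes; its version is not given in the sources used here. Equal quantiles hide a general difference in recovered RNA. Their range set the log2 scale. Probe sequences and the array's genome build were not used here.

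Members and lists were chosen with earlier results of these data known. Presumed controls, which the files do not mark, were the probe sets below the lowest annotated ID. Groups were compared with the lmFit and eBayes functions of limma 3.58.1 (R 4.3.3), 2-sided and unblocked, with 3 residual and 3.8 prior degrees of freedom and Benjamini-Hochberg adjustment over all 28187 kept probe sets. The fit was checked on simulated data. With 5 arrays every value has limited precision.

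Of probe sets with 1 symbol, 21553 matched the mouse RefSeq table (GRCm38.p6) by gene ID. A host gene was one whose span contains a snoRNA gene, or Gas5 or a Snhg gene. The same strand was not required. Intervals used the chromosome that at least 6 of the 10 nearest placed named probe sets shared, rising starts and a distance of at most 5 Mb. Named probe sets were those past the adjusted threshold, the 12 largest positive and 8 largest negative differences (unadjusted p under 0.05, separate groups, mean above the median kept level), the 5 brightest per group, and runs of at least 3. Of these runs the rule took the highest 6 beside snoRNA or host genes (5 qualified), and the 4 highest and 3 lowest others, each with a mean above that level. The run of 49, the run of 8 before Alkbh8, and single-gene and ribosomal RNA intervals were described after their values were seen. Figures used matplotlib 3.10.9 in Python 3.11.15.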

Additional observations from a re-analysis of the deposited data

How the results depend on the processing

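The count of unnamed probe sets past the adjusted threshold was small under every setting that kept all arrays. The main fit gave 1 higher and 0 lower. Higher calls numbered 0 under cyclic loess scaling, among probe sets above the presumed control percentile, with the replicate block and over all probe sets of the table. They numbered 2 with arrays centred on probe sets with 1 symbol, 3 centred on brighter ones, 2 with trend and robust moderation and 5 with array weights, the only one of these settings with lower calls (2). Over all kept probe sets, calls in both directions made up 0.064%, 0.145%, 0.046% and 0.305% under those settings, in that order. Leaving out 1 array gave 0 to 58 higher and 0 to 13 lower. Over all kept probe sets, 1.242% passed without FLAG-SMN IP replicate 1 and 0 without any other array. The cause of these changes was not tested.

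The 2-fold higher count was 10 of 176 above the presumed control percentile and 273 of 5226 at 1.5-fold, and 76 to 204 with 1 array left out. The 2-fold lower count was 26 among probe sets brighter than the median, 2 above that percentile and 125 at 1.5-fold, and 36 to 64 with 1 array left out. The 2-fold shares over all kept probe sets were computed only for the main fit. Whether the unnamed probe sets exceed them under other settings was not tested. In the main fit, 11 of the 176 above the percentile were higher and 2 lower, against 27 and 28 of 996 with 1 symbol. Beside snoRNA or host genes, 2-fold higher probe sets numbered 2 above that percentile and 9 in runs of at least 3 (both from fewer probe sets), and 15 to 39 with 1 array left out. Their median difference was 0.37 among brighter probe sets and 0.46 above the percentile. None of the 21 probe sets named for the size of their difference changed direction under any setting run. Their groups do not overlap, so leaving out 1 array could not change the direction, and nothing is concluded from it. Only 1 of the 21 was among the probe sets above the presumed control percentile. The median over all unnamed probe sets ran from −0.01 to 0.16 with 1 array left out. Correlations of same-numbered deviations from the group means were 0.13 and −0.202. With 2 control arrays these deviations mirror each other, so the check cannot settle whether replicate numbers pair the arrays. FLAG-SMN IP replicate 3 has no partner. With the replicate block, 193 were 2-fold higher and 49 lower. Signal over background may limit the 39.9% of unnamed probe sets below a level of 4. Whether differences are compressed there was not tested.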
